A study of Mus musculus with 63 samples.

Results

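The 10 genes described here are the Dlx transcription factors Dlx1, Dlx2 and Dlx5 and the inhibitory neuron genes Gad1, Gad2, Slc32a1, Sst, Pvalb, Vip and Npy. They were chosen by name, as the family whose enhancer drove one of the reporters of the study and as genes that define cortical interneurons, and each symbol matched 1 of the 56980 gene identifiers in the count tables. RNA-seq was performed on 4 sorted cell populations from the cortex of female C57BL/6J mice that received a burn over 7 to 8% of the body surface or a sham injury (shaved but not burned) and were taken 5 weeks later; they were housed at 12 weeks of age and had 7 days to acclimatise before surgery, which the injury followed directly. Mice of both groups carried 2 injected AAV reporters in the motor cortex, eGFP under the CaMKII promoter and nuclear mRuby2 under the mDlx enhancer. CaMKII positive cells (labelled excitatory neurons) and CaMKII-mDlx double-positive cells (labelled inhibitory neurons) were sorted from the motor cortex, and ACSA2-positive astrocytes and CD11b-positive microglia from the cortex caudal to it, so region and cell type cannot be told apart between the neuron and glia sorts.

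Dlx1, Dlx2 and Dlx5 are homeodomain factors that specify GABAergic interneurons in the embryonic ventral forebrain and stay active at lower levels in parts of the adult interneuron population. Gad1 and Gad2 encode the enzymes that make GABA from glutamate, and Slc32a1 encodes the transporter that loads it into synaptic vesicles. Sst, Vip and Npy encode neuropeptides and Pvalb a calcium-binding protein, and their presence divides cortical interneurons into classes with different targets and firing properties.

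Of 63 libraries, 58 from 17 mice were compared: 4 burn and 6 sham CaMKII positive libraries, 9 and 7 double-positive, 9 and 8 astrocyte, and 8 and 7 microglia. Mouse 3 in all 4 populations and the double-positive library of mouse 8, which held 331215 counts and 0 counts of all 10 genes, were left out, following the exclusions stated for these mice. The kept libraries held 13346143 to 134703744 counts, and 3 counts, the limit that a count of 0 allows, correspond to 0.0223 to 0.225 CPM (counts scaled to a library total of 1e6) in CaMKII positive, 0.0557 to 0.212 in double-positive, 0.0628 to 0.164 in astrocyte and 0.0547 to 0.181 in microglia libraries. Such limits and the intervals given below cover counting error only.

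Many markers of the 2 neuron sorts went against their labels. In double-positive libraries the summed level of 10 microglia markers was 23700 CPM (18900 to 35539), beside 28283 CPM in CD11b-positive microglia, and that of 10 neuron markers was 33.7 CPM (18.5 to 53.2), beside 441 CPM in CaMKII positive libraries. Map2, a microtubule protein gene, carried 347 of those 441 CPM and was higher still in astrocyte libraries at 560 CPM, and the 9 other neuron markers summed to 93.7 ± 47.1 CPM in CaMKII positive, 56.9 ± 56.2 CPM in astrocyte, 17.9 ± 8.26 CPM in double-positive and 9.0 ± 3.46 CPM in microglia libraries. In CaMKII positive libraries the 10 astrocyte markers summed to 20799 CPM, beside 43234 CPM in astrocyte libraries. Slc17a7, the vesicular glutamate transporter of cortical excitatory neurons, averaged 12.4 CPM in CaMKII positive libraries. The summed level of 10 excitatory neuron markers was 202 CPM there (median 163) and 227 CPM in astrocyte libraries (median 113). It was 54.7 CPM in double-positive and 44.2 CPM in microglia libraries. The 10 inhibitory neuron genes had mean summed levels of 15.3 ± 9.68 CPM (SD, n = 10) in CaMKII positive, 8.95 ± 4.64 CPM (n = 17) in astrocyte, 2.08 ± 1.02 CPM (n = 16) in double-positive and 0.966 ± 0.385 CPM (n = 15) in microglia libraries, and all 10 averaged under 1 CPM in the double-positive libraries labelled inhibitory. The libraries of the 2 neuron sorts are therefore named below by their sort and not by a cell type, while the ACSA2-positive and CD11b-positive libraries keep their labels. In these bulk samples, fewer cells of a type and less RNA per cell cannot be told apart.

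**Figure D1:**
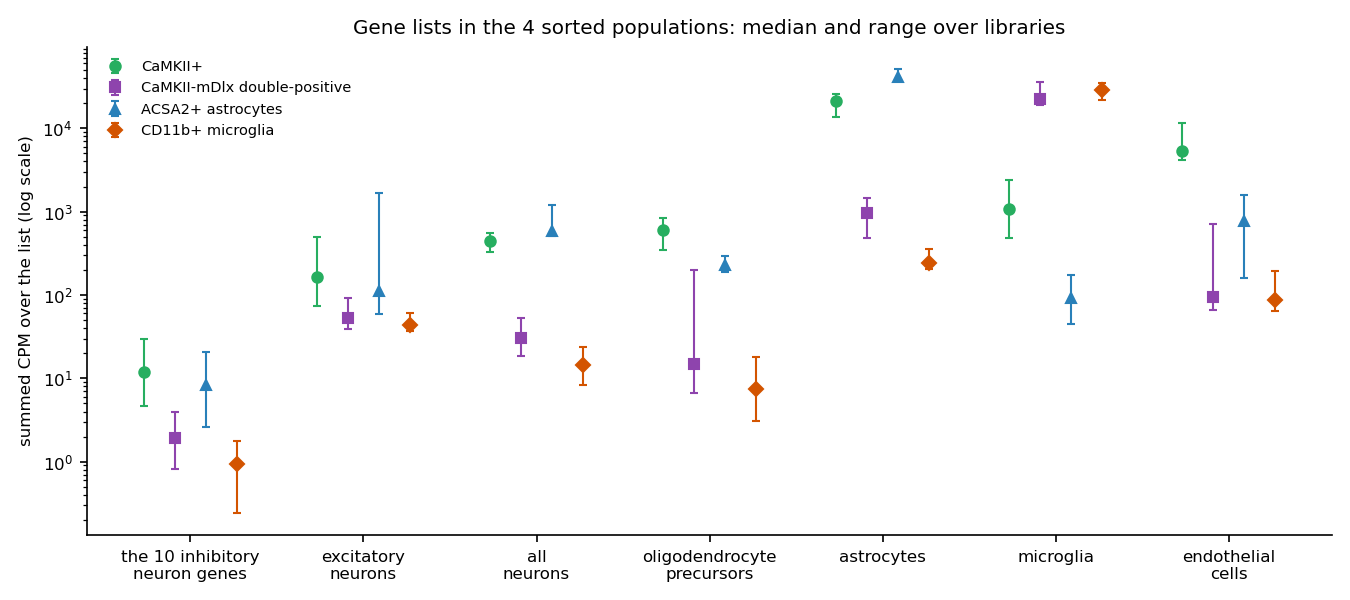
Summed CPM (log scale) of the 10 inhibitory neuron genes and of 6 marker lists in the 4 sorted populations; points are medians over libraries and bars run from the lowest to the highest library. Double-positive libraries lie beside CD11b-positive microglia for the microglia list, and their summed inhibitory neuron genes lie below those of CaMKII positive libraries.

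The sequence before the start of 3 of these genes is shown because they stand for different behaviours in these data: Gad1 was counted in all CaMKII positive libraries, Sst in 18 of all 58 libraries, and Vip in 11, with 79.7% of its 418 counts in 1 CaMKII positive library. RefSeq promoter entries (build GRCm38.p6) matched 9 of the 10 genes, and the 250 bases before each start were searched on both strands for TAATTA, the core read by many homeodomains, TGACGTCA, the cAMP response element, and TATAAA, the TATA box. The capitals mark each match, read 5′ to 3′ on the gene's strand.
Gad1, chr2:70561879-70562128, plus strand: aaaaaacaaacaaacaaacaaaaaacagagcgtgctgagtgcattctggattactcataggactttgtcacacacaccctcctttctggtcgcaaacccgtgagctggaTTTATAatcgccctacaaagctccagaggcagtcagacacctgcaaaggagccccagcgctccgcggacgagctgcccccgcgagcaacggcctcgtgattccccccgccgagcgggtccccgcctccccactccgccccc
Sst, chr16:23890845-23891094, minus strand: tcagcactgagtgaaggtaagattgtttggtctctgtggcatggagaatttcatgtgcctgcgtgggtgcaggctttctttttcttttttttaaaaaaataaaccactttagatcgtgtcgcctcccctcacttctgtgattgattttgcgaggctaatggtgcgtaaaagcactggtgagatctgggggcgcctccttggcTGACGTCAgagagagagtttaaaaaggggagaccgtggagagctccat
Vip, chr10:5638968-5639217, plus strand: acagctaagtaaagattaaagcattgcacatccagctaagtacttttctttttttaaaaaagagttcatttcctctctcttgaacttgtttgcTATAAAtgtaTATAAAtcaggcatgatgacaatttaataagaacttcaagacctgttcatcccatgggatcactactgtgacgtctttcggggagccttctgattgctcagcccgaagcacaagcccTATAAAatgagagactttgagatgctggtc
The Sst window holds the cAMP response element 48 bases before the start, a motif found in 1.55% of 32851 RefSeq promoter windows of the same length. The TATA box letters are in the windows of Gad1, on the opposite strand 141 bases before the start, and of Vip, 3 times, and in 12.4% of all windows. The homeodomain core is in the window of 0 of the 9 genes and in 4.84% of all. The 3 windows have a GC content of 58.0% for Gad1, 47.2% for Sst and 38.4% for Vip, against a median of 52.4% over all windows.

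Among the Dlx factors, Dlx1 was the one counted most widely. In CaMKII positive libraries it had 1.24, 3.67, 2.02 and 1.06 CPM in the 4 burn mice and 7.00, 6.37, 0.729, 0.786, 0 and 2.05 CPM in the 6 sham mice. The burn values all lay within the sham range, and the sham mice ran from 0 counts in mouse 18 to 185 in mouse 8. In the other populations Dlx1 was low: the burn libraries ran from 0 through a median of 0.206 to 1.03 CPM in double-positive cells, from 0 through 0.256 to 0.694 CPM in astrocytes and from 0 through 0.0126 to 0.214 CPM in microglia. The sham libraries ran from 0 through 0.294 to 0.841 CPM in double-positive cells, from 0 through 0.0919 to 1.42 CPM in astrocytes and from 0 through a median of 0 to 0.636 CPM in microglia. Burn and sham overlapped in each population, and Dlx1 had counts in 9 of 10 CaMKII positive, 12 of 16 double-positive, 10 of 17 astrocyte and 6 of 15 microglia libraries. In the GENCODE M21 annotation, 335 bases (6.21%) of the Dlx1 exons lie opposite exons of the antisense gene Dlx1as, and since the use of strand in counting is not given in the sources used here, their reads may not be separable.

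Dlx2, the neighbour of Dlx1 on chromosome 2, was rarer. In CaMKII positive libraries it had 0.445, 0, 1.50 and 0 CPM in burn mice and 1.74, 1.263, 0, 0, 0 and 0.228 CPM in sham mice, so 5 of 10 libraries had none. It averaged 0.101 ± 0.237 CPM in double-positive libraries (counts in 7 of 16; 0.0438 CPM without mouse 19) and 0.233 ± 0.360 CPM in astrocytes (counts in 9 of 17). Microglia held 4 counts in all, from 1 burn library. Dlx5, on chromosome 6, was nearly confined to CaMKII positive libraries, where it totalled 57 counts in 4 of 10: 0.230 and 0.101 CPM in burn mice 2 and 20 and 1.02 and 0.0456 CPM in sham mice 17 and 19. It had 2 counts in the 16 double-positive libraries and none in the 17 astrocyte or the 15 microglia libraries, where a count of 0 over all libraries of a population allows up to 0.00595 CPM and 0.00669 CPM.

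Gad1 was counted in more libraries than any other of the 10 genes. In CaMKII positive libraries it had 4.17, 1.01, 4.95 and 8.32 CPM in burn mice and 7.84, 9.01, 2.25, 3.37, 5.30 and 3.28 CPM in sham mice. The highest burn library and the highest sham libraries were alike, and 1 burn library was below all others. Astrocyte libraries all had counts as well, from 0.662 through a median of 2.81 to 3.98 CPM in burn and from 0.703 through 4.36 to 5.63 CPM in sham. Double-positive libraries ran from 0 through 0.634 to 1.47 CPM in burn and from 0.275 through 0.687 to 2.08 CPM in sham, and microglia from 0 through 0.469 to 0.820 CPM in burn and from 0.214 through 0.363 to 0.894 CPM in sham. Gad1 was therefore counted in 56 of the 58 libraries, with CaMKII positive cells and astrocytes above the other 2 populations.

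Gad2 was lower and, in CaMKII positive cells, absent from 3 libraries, all sham: its levels were 0.765, 1.68, 0.749 and 3.56 CPM in burn mice and 3.14, 0.824, 0, 1.76, 0 and 0 CPM in sham mice. It was counted in all 16 double-positive libraries, from 0.159 through 0.423 to 0.980 CPM in burn and from 0.200 through 0.589 to 1.50 CPM in sham. In astrocytes it ran from 0.704 through 1.39 to 1.98 CPM in burn and from 0 through 0.856 to 5.54 CPM in sham, and in microglia it averaged 0.206 ± 0.261 CPM. Slc32a1 had 0.163, 0, 0.599 and 0 CPM in CaMKII positive burn libraries and 1.33, 0, 0, 0.739, 0 and 1.50 CPM in sham libraries. So Slc32a1 was at 0 in 5 libraries in which Gad1 was counted. It averaged 0.0552 ± 0.139 CPM in double-positive, 0.332 ± 0.871 CPM in astrocyte and 0.0740 ± 0.141 CPM in microglia libraries. Without the library with most counts (mice 21, 13 and 19) these means were 0.0226, 0.125 and 0.0436 CPM, and 130 of the 194 astrocyte counts came from sham mouse 13. Antisense exons of Gm14205 cover 697 bases (24.9%) of the Slc32a1 exons, so the reads of these genes may not be separable either.

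The class markers were irregular from mouse to mouse. Npy had 0.148, 0.404, 0.674 and 8.76 CPM in CaMKII positive burn libraries and 3.52, 1.43, 1.70, 2.73, 0 and 1.00 CPM in sham libraries. Burn mouse 24 stood far above the other 3 burn mice, which lay below 5 of the 6 sham mice. Astrocytes had Npy at 0 through 0.764 to 4.59 CPM in burn and 0.377 through 1.305 to 6.73 CPM in sham. Pvalb had 0.238, 0, 0.674 and 0 CPM in CaMKII positive burn libraries and 5.34, 2.58, 0, 1.25, 0 and 2.51 CPM in sham libraries, where 4 of 6 sham mice were above all burn mice. In astrocytes Pvalb ran from 0.141 through 1.38 to 2.39 CPM in burn and from 0 through 1.63 to 4.81 CPM in sham, and it was counted in 16 of 17 of these libraries. Double-positive libraries averaged 0.147 ± 0.272 CPM of Pvalb and 0.0570 ± 0.148 CPM of Npy, and microglia 0.0233 ± 0.0589 CPM and 0.0272 ± 0.0645 CPM. Single libraries carried much of these 4 means, which fell to 0.0940 CPM without mouse 15, 0.0209 CPM without mouse 21, 0.00931 CPM without mouse 8 and 0.0147 CPM without mouse 10.

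Sst had 0.0965, 1.14, 0 and 4.33 CPM in CaMKII positive burn libraries and was at 0 in 5 of 6 sham libraries, with 1.02 CPM in mouse 17. Vip was carried by 1 library: sham mouse 19 held 333 of its 348 counts in CaMKII positive cells (15.2 CPM), burn mouse 24 held the other 15 (0.722 CPM) and 8 libraries had none. That same library of mouse 19 had 0 counts of Sst and 2.51 CPM of Pvalb. In the other populations Sst had counts in 4 of 16 double-positive, 8 of 17 astrocyte and 2 of 15 microglia libraries, and Vip in 4, 3 and 2. Over all 10 genes, 39.0% of the values in CaMKII positive, 50.6% in double-positive, 39.4% in astrocyte and 70.0% in microglia libraries were 0, with a median of 6.5, 4, 6 and 2 of the 10 genes counted in a library. The share of 0 values moved with sequencing batch: it was 46.7%, 13.3% and 63.0% in batches 1, 2 and 3 in double-positive libraries and 25.0%, 16.7% and 52.0% in astrocytes. Depth differed between the batches as well. Kept double-positive libraries held 24077794 to 39051202 counts in batch 1, 39992532 to 53824290 in batch 2 and 14156588 to 27182881 in batch 3. The part of depth in these shares was not tested. The part of batch in the results below was not tested beyond the batch term and the values from batch 3 alone.

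**Figure D2:**
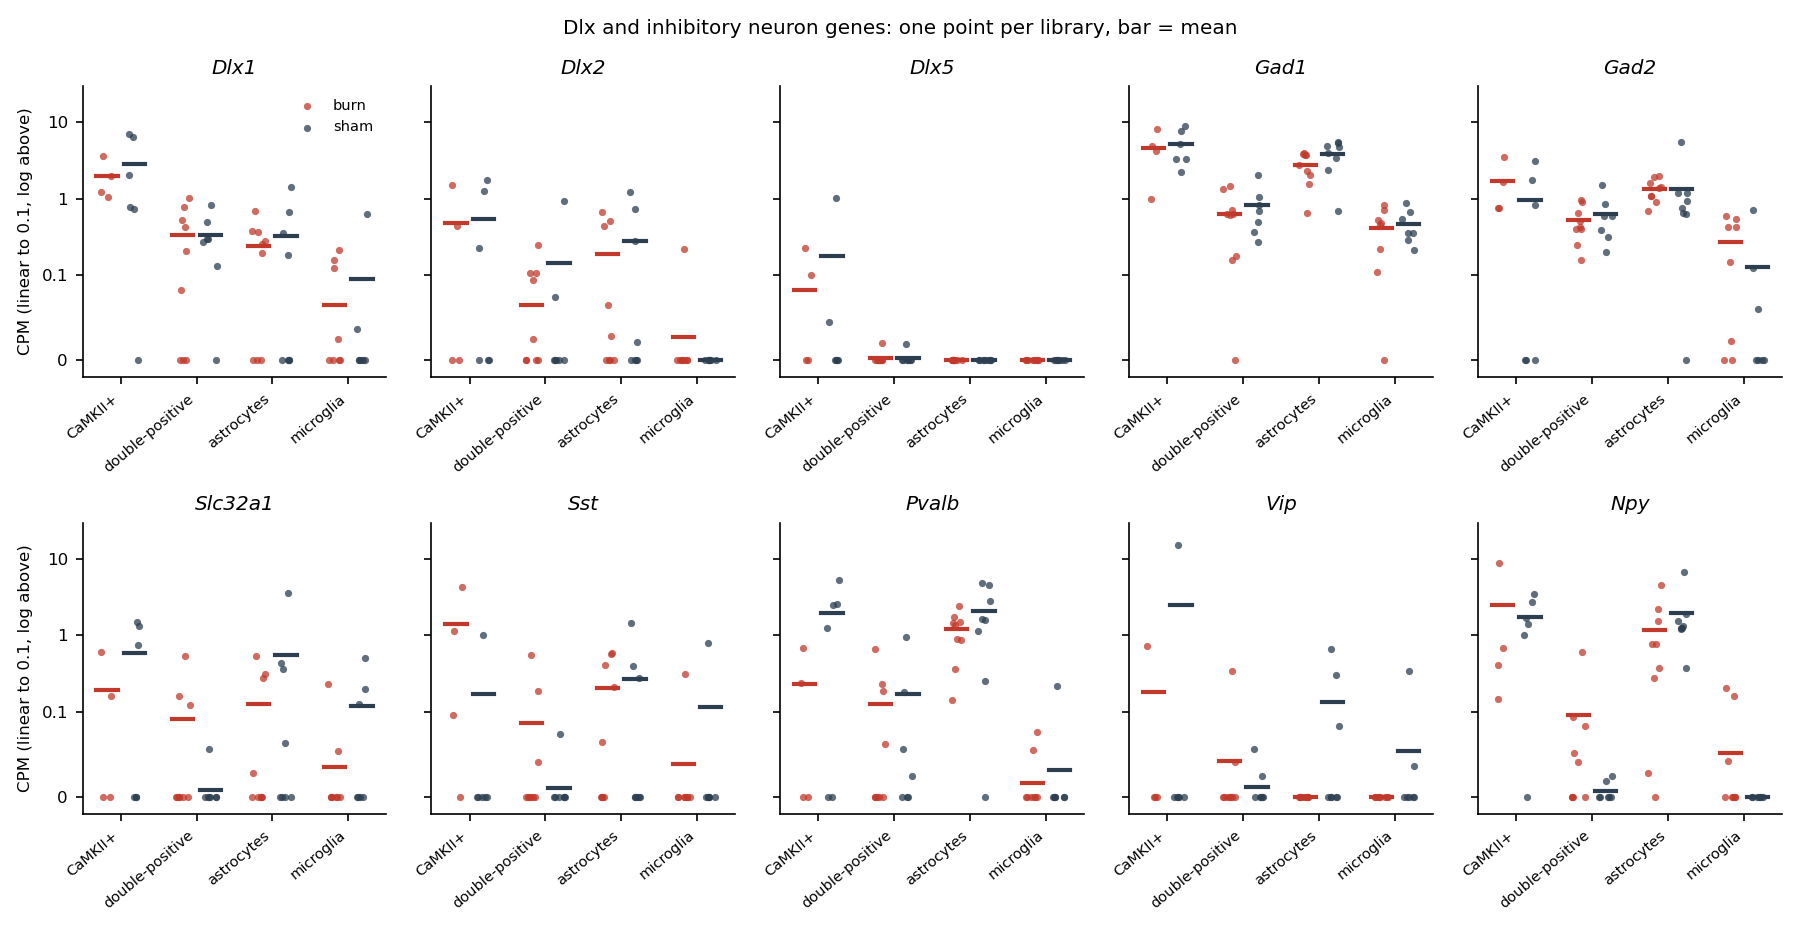
CPM of the 10 genes in each of the 58 libraries (linear up to 0.1 and logarithmic above), by sorted population and by burn (red) and sham (dark), with bars at the means. Gad1 is above 0 in 56 libraries, Vip is at 15.2 CPM in 1 CaMKII positive sham library and at 0 in 8 others, and Dlx5 is at 0 in all astrocyte and microglia libraries.

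Levels of different genes can be compared per kilobase of exon (GENCODE M21). In CaMKII positive cells the order of mean levels was Npy at 3.60 ± 4.62 CPM per kb, Pvalb at 1.21 ± 1.68, Sst at 0.914 ± 1.89, Gad1 at 0.648 ± 0.352, Vip at 0.468 ± 1.41, Dlx1 at 0.462 ± 0.450, Gad2 at 0.212 ± 0.218, Dlx2 at 0.181 ± 0.246, Slc32a1 at 0.155 ± 0.209 and Dlx5 at 0.0616 ± 0.140 (n = 10). Each neighbouring pair in this order differed by less than the larger of its SDs. Parts of the order rested on single libraries: without the library that held most of its counts, Vip fell to 0.0236 ± 0.0707 CPM per kb, the lowest of the 10, Sst to 0.348 ± 0.656, below Gad1 and Dlx1, Pvalb to 0.774 ± 1.03 and Npy to 2.28 ± 2.11 (n = 9), with Npy and Pvalb still first. Astrocytes had the same 2 genes first, Npy at 2.72 ± 3.04 and Pvalb at 1.56 ± 1.33 CPM per kb, followed by Gad1 at 0.431 ± 0.199 (n = 17). In double-positive libraries all were at or below the 0.141 ± 0.262 CPM per kb of Pvalb (n = 16), and in microglia at or below the 0.103 ± 0.301 of Sst (n = 15). Both rested on single libraries: without the one with most counts Pvalb had 0.0903 and Sst 0.0309 CPM per kb, and with each gene's top library left out Gad2 was first in double-positive libraries at 0.0964 and Gad1 in microglia at 0.0570.

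The sorted populations were then compared in edgeR quasi-likelihood fits over all genes, with batch and treatment as covariates. A gene was called when its adjusted p (p.adj, Benjamini-Hochberg over all genes tested) was at most 0.05 and its absolute log2 fold change (log2FC) at least 1. Since the populations come from the same mice, the fit with mouse as a block is given where it changes a call. From 7.58% to 55.1% of all genes tested were called in these comparisons, and each share is printed beside the count. The 6 comparisons share libraries with each other, and the counts are descriptions of these genes and not of inhibitory neurons.

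CaMKII positive libraries had higher levels than double-positive libraries for 6 of the 10 genes, Dlx1, Dlx5, Gad1, Sst, Vip and Npy, although the mDlx enhancer drove the reporter used to sort the latter. In this comparison 45.8% of all genes tested were called and 26.4% were called higher in CaMKII positive cells. The median log2FC of the 10 genes was 3.07, against 0.05 over all genes. Gad1 was higher by a log2FC of 2.38 (SE 0.51, p.adj = 2.39e-04) and in 9 of 9 mice with both libraries, Dlx1 by 2.65 (SE 0.84, p.adj = 0.00853) and in 8 of 9, and Npy by 5.43 (SE 1.05, p.adj = 7.53e-05) and in 8 of 9. These 3 calls also held with mouse as a block (p.adj = 0.0179, 0.0376 and 0.00114), so the block left 3 of 6.

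Dlx5 had 57 counts in CaMKII positive and 2 in double-positive libraries, a ratio of 38.5 (95% exact counting interval 10.2 to 326), and its call (p.adj = 0.00679) was lost with the block (p.adj = 0.144) and in DESeq2 (p.adj = 0.234). CaMKII positive mice 2 and 17 held 31 and 22 of the 57 counts and double-positive mice 11 and 12 1 count each, and the ratio was 28.8 without mouse 2, 23.8 without mouse 17, 68.3 without mouse 11 and 67.3 without mouse 12. Sst, at a log2FC of 3.49 (SE 1.40, p.adj = 0.0337), lost its call with the block (p.adj = 0.127), in DESeq2 (p.adj = 0.110), without mouse 17 (2.62, p.adj = 0.113) and without mouse 24 (2.72, p.adj = 0.140), and rose to 5.37 without mouse 20. Vip, at 4.96 (SE 1.93, p.adj = 0.0312), had a log2FC of 1.07 (p.adj = 0.517) without mouse 19, which holds most of its counts, and 7.59 without mouse 20, and it also lost its call with the block (p.adj = 0.397), without mouse 18 (p.adj = 0.0503) and without mouse 24 (p.adj = 0.0587). The Vip and Sst calls thus rested on single libraries, while those of Gad1, Dlx1 and Npy did not. DESeq2 gave Vip a log2FC of 8.14 but no adjusted p. Of the genes not called, Slc32a1 had a log2FC of 3.68 (p.adj = 0.0690) and reached a call without mouse 8, 20, 21 or 24 (p.adj = 0.0296, 0.0429, 0.00936 and 0.0450). Dlx2 had 2.01 (p.adj = 0.168; 4.35 and p.adj = 0.00847 without mouse 19), Pvalb 1.73 (p.adj = 0.234; 2.64 and p.adj = 0.0422 without mouse 24) and Gad2 0.73 (p.adj = 0.394). The microglia markers moved with this difference, with 10 of 10 called lower and Csf1r at a mean of 286 CPM in CaMKII positive and 5777 CPM in double-positive libraries, and so did the lists of the other cell types: 10 of 10 astrocyte, 10 of 10 oligodendrocyte precursor, 8 of 8 endothelial, 7 of 8 oligodendrocyte, 8 of 10 neuron and 5 of 10 excitatory neuron markers were called higher in CaMKII positive cells. The endothelial list had the highest median log2FC among them, 6.66. Their part in the result was not tested.

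Against astrocytes, CaMKII positive libraries were higher in Dlx1, Dlx5 and Vip and did not pass the test for the GABA genes. Here 16.2% of all genes were called, 12.7% higher and 3.5% lower in CaMKII positive cells. Dlx1 was higher by a log2FC of 3.02 (SE 0.92, p.adj = 0.0129) and in 8 of 10 mice, and kept its call with the block (4.79, p.adj = 0.0305) but not in batch 3 alone (2.96, p.adj = 0.0946). Dlx5 was at least 30.2-fold higher (57 counts against 0, taken as 3 counts over the whole group; 18.8-fold without mouse 17 and 22.3-fold without mouse 2), and this call (p.adj = 0.0106) was lost with the block (p.adj = 0.287) and in DESeq2 (p.adj = 0.406). Vip, at 6.47 (SE 1.99, p.adj = 0.0132), fell short with the block (2.14, p.adj = 0.514), without mouse 19 (3.55, p.adj = 0.366) and without mouse 24 (5.98, p.adj = 0.0619). With the block, Dlx1 was the 1 call left of 3. Gad1 differed by 0.52 (SE 0.36, p.adj = 0.304), higher in 6 of 10 mice, Gad2 by 0.11 (SE 0.72, p.adj = 0.942) and Npy by 0.20 (SE 0.74, p.adj = 0.888). Pvalb had a log2FC of −1.50 (SE 0.93, p.adj = 0.239) and was higher in the astrocytes of 7 of 10 mice. Sst had 2.92 (p.adj = 0.145), and 4.21 (p.adj = 0.0483) in batch 3 alone. Slc17a7 averaged 9.71 CPM in these astrocyte libraries, with a median of 3.41 CPM, and 5.0 CPM without mouse 13, which had 85.1 CPM. The microglia, endothelial, oligodendrocyte precursor and oligodendrocyte lists moved with this comparison, with 10 of 10, 8 of 8, 7 of 10 and 7 of 8 markers called higher in CaMKII positive cells and 9 of 10 astrocyte markers called lower, beside 2 of 10 neuron markers called higher. The part of these in the levels of the inhibitory neuron genes was not tested.

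Microglia were lower than CaMKII positive libraries in 8 of the 10 genes. In this comparison 43.5% of all genes were called and 28.3% were called higher in CaMKII positive cells. Gad1 was higher by a log2FC of 3.29 (SE 0.49, p.adj = 2.35e-06) in 10 of 10 mice, Npy by 6.77 (SE 1.08, p.adj = 6.69e-06), Dlx1 by 4.60 (SE 0.96, p.adj = 2.12e-04), Pvalb by 5.27 (SE 1.21, p.adj = 6.02e-04) and Gad2 by 3.05 (SE 1.04, p.adj = 0.0150). These 5 calls held with the block. The calls of Dlx2 at 5.21 (p.adj = 0.00299), of Dlx5, at least 26.9-fold higher (p.adj = 0.00681; 17.1-fold without mouse 17), and of Vip at 6.31 (p.adj = 0.00425) did not (p.adj = 0.0512, 0.169 and 0.316), and Dlx5 was not called in DESeq2 (p.adj = 0.277). Vip had 3.08 (p.adj = 0.0943) without mouse 19, which held 333 of its 348 CaMKII positive counts, while Sst reached a call without mouse 15 (4.74, p.adj = 0.00145) and Slc32a1 without mouse 19 (3.66, p.adj = 0.0219). DESeq2 gave Vip a log2FC of 11.3 but no adjusted p. The median log2FC of the 10 genes was 4.74, or 4.67 with Dlx5 at its bound, against 0.23 over all genes. Markers of other cells moved with them: 10 of 10 astrocyte, 10 of 10 oligodendrocyte precursor, 8 of 8 endothelial, 8 of 8 oligodendrocyte, 9 of 10 neuron and 7 of 10 excitatory neuron markers were called higher in CaMKII positive cells and 10 of 10 microglia markers lower, and their part was not tested.

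Double-positive libraries were lower than astrocytes in Gad1, Gad2, Pvalb and Npy, and 0 genes of the 9 tested were called higher; Dlx5, with 2 counts, was not tested. Of all genes tested 55.1% were called and 30.7% were called lower in double-positive cells. Gad1 was lower by a log2FC of −2.24 (SE 0.39, p.adj = 4.30e-06) and in 14 of 16 mice, Npy by −4.76 (SE 0.80, p.adj = 3.00e-06) and in 14 of 16, and Pvalb by −3.45 (SE 0.72, p.adj = 7.64e-05) and in 15 of 16. Gad2, at −1.25 (SE 0.42, p.adj = 0.00924) and lower in 14 of 16 mice, lost its call with the block (−1.14, p.adj = 0.0623), in batch 3 alone (−0.65, p.adj = 0.393) and without mouse 13 (−0.93, p.adj = 0.0417, below the limit on log2FC). Calls were gained by Dlx2 without mouse 19 (−2.63, p.adj = 0.0379), by Sst without mouse 20 (−3.66, p.adj = 8.32e-04) and by Slc32a1 without mouse 21 (−3.37, p.adj = 0.00966). In this comparison 10 of 10 astrocyte, 7 of 8 endothelial, 6 of 8 oligodendrocyte, 4 of 10 oligodendrocyte precursor, 7 of 10 neuron and 5 of 10 excitatory neuron markers were called lower in double-positive cells and 10 of 10 microglia markers higher, and their part was not tested.

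Between double-positive libraries and microglia 2 of the 9 genes tested were called, and Dlx5, with 2 counts, was not tested. The median log2FC of the 9 was 0.94. Dlx2 and Pvalb were called higher in double-positive cells, where 7.58% of all genes were called and 5.6% were called higher. Dlx2 had a log2FC of 2.89 (SE 1.01, p.adj = 0.0431), from 41 counts against 4, and Pvalb of 3.30 (SE 1.09, p.adj = 0.0325), from 52 counts against 16. Both calls were lost with the block (p.adj = 0.364 and 0.247), in batch 3 alone (p.adj = 0.467 and 0.0707) and with all deposited libraries (p.adj = 0.0532 and 0.0570). With the block Gad2 was called instead, at 2.71 (p.adj = 0.0474) against 1.65 (SE 0.70, p.adj = 0.101) without it, and it was higher in double-positive cells in 12 of 14 mice. Dlx2 fell to 0.91 (p.adj = 0.470) without mouse 19 and lost its call when any of mice 2, 7, 8, 10, 11, 13, 15, 16, 17, 18 or 23 was left out (p.adj = 0.0503 to 0.0958). Without mouse 21 microglia held 0 counts of Dlx2, so no exact fold can be given for that fit. Pvalb lost its call without mouse 13, 15, 18 or 24 (p.adj = 0.0607, 0.123, 0.0536 and 0.111), and Dlx1, at 1.96 (p.adj = 0.147), gained one without mouse 16 (2.92, p.adj = 0.0355). Gad1 had 0.68 (SE 0.50, p.adj = 0.382) and was higher in the double-positive cells of 8 of 14 mice. Marker lists of the other cell types differed as well, with 8 of 10 astrocyte and 5 of 10 oligodendrocyte precursor genes called higher in double-positive cells, 3 of 10 neuron genes called higher and 0 of 10 microglia genes called; their part was not tested.

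Astrocytes were higher than microglia in Gad1, Gad2, Dlx2, Pvalb and Npy, where 54.2% of all genes were called, 32.4% higher and 21.8% lower in astrocytes. The log2FC was 2.87 for Gad1 (SE 0.39, p.adj = 6.35e-08, higher in 15 of 15 mice), 2.73 for Gad2 (SE 0.70, p.adj = 9.37e-04, 14 of 15), 6.27 for Pvalb (SE 0.81, p.adj = 2.38e-08, 14 of 15), 5.81 for Npy (SE 0.92, p.adj = 1.09e-06, 14 of 15) and 4.27 for Dlx2 (SE 1.09, p.adj = 9.17e-04, 7 of 15 with 8 equal). All 5 calls held with the block and when any 1 mouse was left out, while Sst gained a call without mouse 15 (2.77, p.adj = 0.0490), Dlx1 without mouse 16 (2.93, p.adj = 0.0151) and Slc32a1 without mouse 19 (2.45, p.adj = 0.0333). Here 10 of 10 astrocyte, 8 of 10 oligodendrocyte precursor, 7 of 8 endothelial, 6 of 8 oligodendrocyte, 9 of 10 neuron and 6 of 10 excitatory neuron markers were called higher in astrocytes and 10 of 10 microglia markers lower, and their part was not tested.

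**Figure D3:**
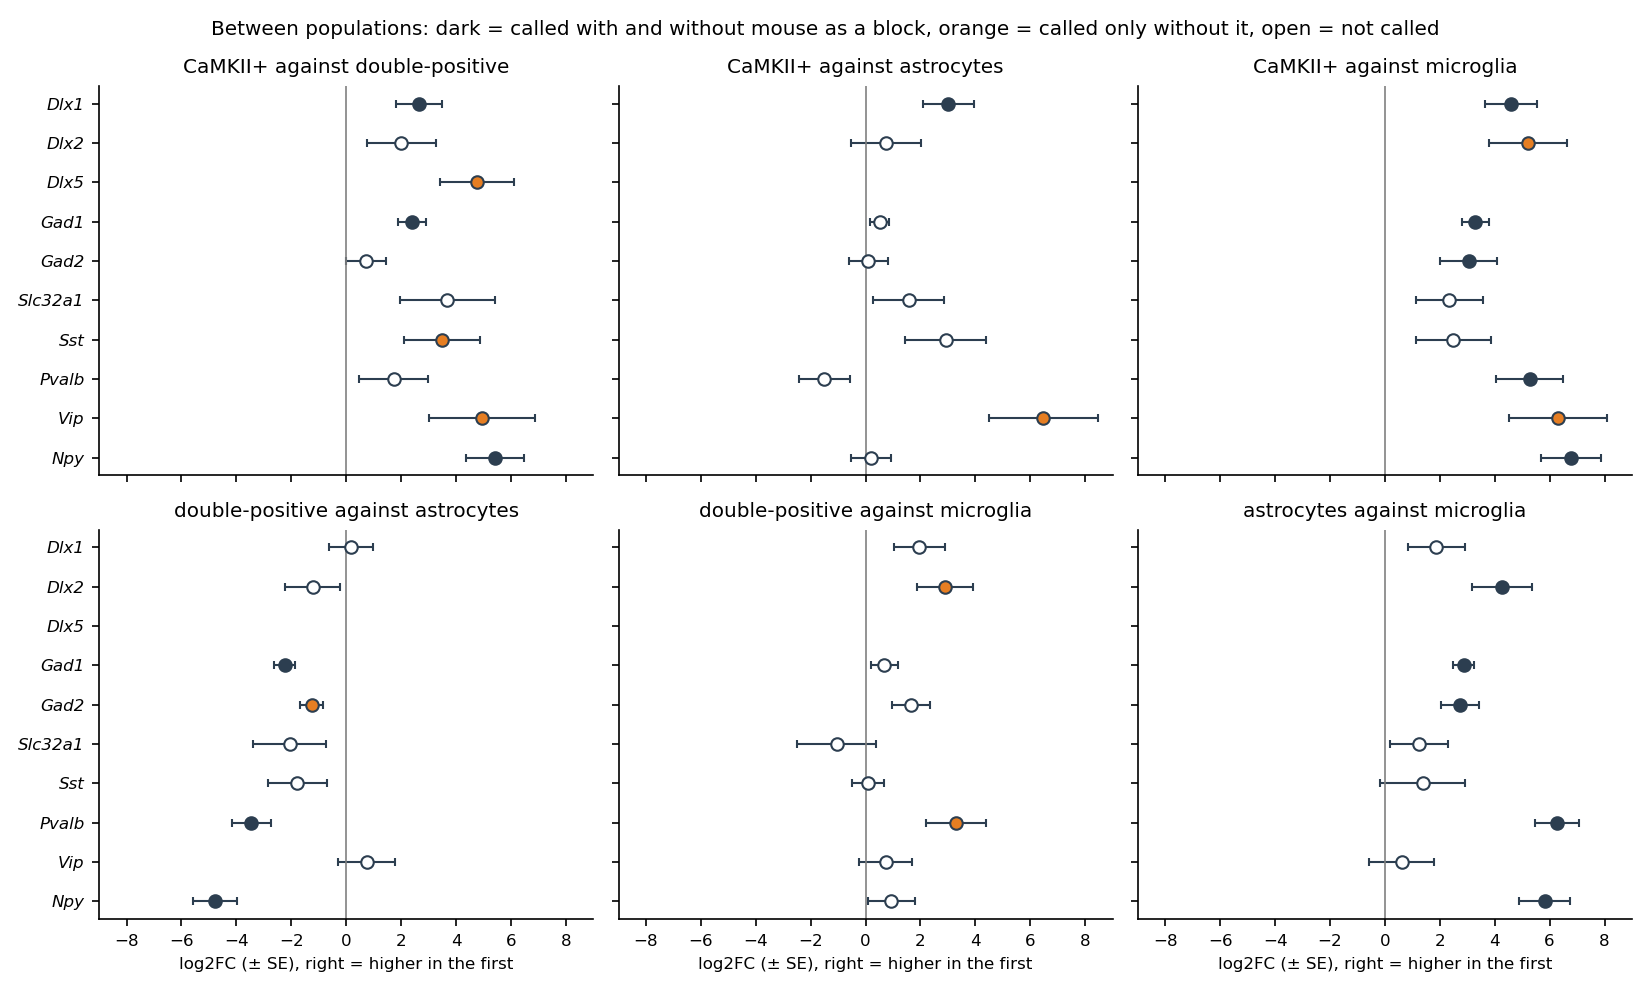
log2FC ± SE of the 10 genes in the 6 comparisons of sorted populations (positive values are higher in the population named first); dark points were called with and without mouse as a block, orange points only without it, and open points were not called without it. Dlx5 is not drawn where a population had 0 counts, and Gad2 in double-positive cells against microglia, open here, was called with the block.

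The effect of the burn was compared within each population with the same test. None of the 10 genes was called in any of the 4 populations in edgeR, beside 0% of all genes called in each. None was called in DESeq2 either, beside 0.0107% of all genes in CaMKII positive cells, 0.00749% in double-positive cells, 0.0967% in astrocytes and 0.307% in microglia. DESeq2 gave no adjusted p for Vip in CaMKII positive cells (log2FC −3.63). At an unadjusted p under 0.05 there were 0 of 10 genes in CaMKII positive cells, 2 of 9 tested in double-positive cells, 1 of 9 in astrocytes and 0 of 8 in microglia, beside 1096 of 28107, 1872 of 26707, 2984 of 27930 and 2036 of 26079 of all genes. The median log2FC of the tested genes was −0.21, 0.27, −0.47 and −0.36, against 0.02, −0.00, 0.05 and 0.00 over all genes.

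In CaMKII positive cells, Gad1 had a log2FC of −0.15 (SE 0.63), Dlx1 of −0.27 (SE 1.15), Dlx2 of 0.22 (SE 2.10), Gad2 of 1.32 (SE 1.65) and Npy of 0.57 (SE 1.41), with p.adj = 1.00 for each. With 4 burn and 6 sham libraries, only Gad1 had an SE under 1. The values farthest from 0 were those of Vip at −3.31 (SE 2.62), Sst at 3.30 (SE 2.03) and Pvalb at −2.97 (SE 1.91), all with p.adj = 1.00. When 1 mouse was left out, the values of Dlx1 (−0.85 to 0.64), Dlx2 (−4.65 to 2.13), Dlx5 (−3.53 to 2.15), Gad1 (−0.71 to 0.19), Npy (−2.02 to 1.27, the lowest without mouse 24) and Vip took both directions. In all 10 such fits Sst (lowest 2.11) and Gad2 (0.57 to 2.51) stayed positive. Pvalb (−6.45 to −2.54) and Slc32a1 (−5.40 to −0.61) stayed negative, Slc32a1 from −1.61 (SE 2.22) with all mice. Vip held 0 sham counts without mouse 19, where the pooled counts were at least 2.43-fold higher in burn. It held 0 burn counts without mouse 24, and Sst held 0 sham counts without mouse 17. No exact fold can be given for these fits.

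In double-positive cells, Slc32a1 and Npy had more counts after burn than after sham, and neither passed the adjusted test. Slc32a1 had 6, 10 and 3 counts in burn mice 11, 21 and 23 and 3 counts in sham mouse 12, a ratio of pooled counts per pooled total of 4.80 (95% exact counting interval 1.41 to 25.3). The fitted log2FC, which weighs libraries and batch, was larger at 4.0 (SE 1.59, p = 0.0209 in edgeR, p.adj = 0.708). Without mouse 21 the pooled ratio was 2.46 (0.614 to 14.1) and the log2FC 2.73. Npy had 20 counts in 5 of 9 burn libraries and 2 counts in 2 of 7 sham libraries, a pooled ratio of 7.58 (1.84 to 66.9), with a fitted log2FC of 3.62 (SE 1.58, p = 0.0329 in edgeR, p.adj = 0.708). Of the 20 burn counts of Npy 11 came from mouse 21, without which the pooled ratio was 3.69 (0.764 to 35.1) and the log2FC 0.44. Batch 1 held 3 burn and 0 sham double-positive libraries, so batch and burn cannot be told apart there; it gave 7 of the 20 Npy counts and 0 of the Slc32a1 counts. The pooled ratios take no account of batch, and in batch 3 alone the 11 burn counts of Npy were all from mouse 21 and the 13 of Slc32a1 from mice 21 and 23, against 0 sham counts of either gene. Most libraries of both groups held 0 counts of Slc32a1, so the groups overlapped. Gad1 had a log2FC of −0.44 (SE 0.77) and Gad2 of −0.19 (SE 0.67) here, and Dlx1 of 0.27 (SE 1.13). Sst had 3.46 (SE 1.82, p.adj = 0.748) and Vip 2.88 (SE 1.56, p.adj = 0.763), from 25 and 14 counts in all. Mouse 20 held 13 and 8 of these counts, and without it Sst had a log2FC of 0.06 and Vip had 2 counts in burn and 4 in sham, too few for the test.

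In astrocytes, Vip was at 0 in the 9 burn libraries and had 38 counts in 3 of 8 sham libraries, at least 14.3-fold higher in sham (edgeR p = 0.0216, p.adj = 0.458), and 24 of those counts were from mouse 13, without which the bound was 6.19-fold. Gad1 had a log2FC of −0.45 (SE 0.42, p.adj = 0.807), Gad2 of 0.54 (SE 0.70, p.adj = 0.899), Pvalb of −0.91 (SE 0.72, p.adj = 0.742) and Npy of −0.75 (SE 0.76, p.adj = 0.838). In microglia, Npy had 13 counts in 3 of 8 burn and 0 in 7 sham libraries, at least 3.63-fold higher in burn (edgeR p = 0.0551, p.adj = 0.650), and Vip 18 counts in 2 of 7 sham and 0 in 8 burn libraries, at least 7.17-fold higher in sham (p.adj = 0.886). Burn mouse 10 held 8 of the 13 Npy counts, and without it the bound was 1.66-fold. Sham mouse 13 held 16 of the 18 Vip counts, and the 2 that remain without it give no bound. Gad1 had −0.22 (SE 0.88) and Gad2 2.23 (SE 1.58, p.adj = 0.888).

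**Figure D4:**
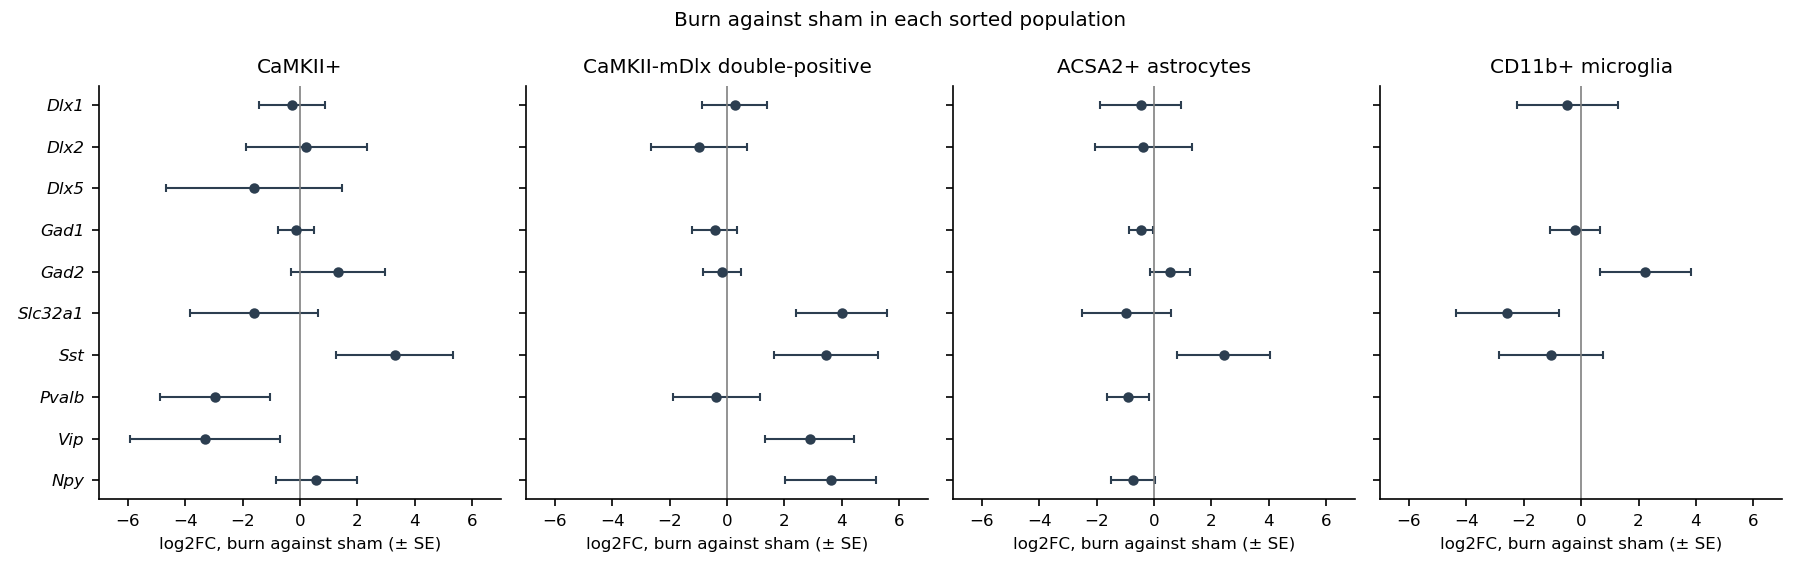
log2FC ± SE of the 10 genes for burn against sham in each of the 4 sorted populations; genes that were not tested, that had 0 counts in a group, or whose SE was over 10 (Pvalb in microglia) are not drawn. None was called, and the Gad1 values lie between −0.45 and −0.15.

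Genes that lie beside the Dlx factors or share their pathway were counted for comparison. Dlx6os1, the long noncoding RNA transcribed across the Dlx5 and Dlx6 locus, was counted in 10 of 10 CaMKII positive libraries at 9.67 ± 6.74 CPM (2.26 to 24.6), and averaged 0.642 ± 0.754 CPM in double-positive, 0.370 ± 0.471 CPM in astrocyte and 0.207 ± 0.378 CPM in microglia libraries. It was higher in CaMKII positive cells than in double-positive cells by a log2FC of 3.89 (SE 0.78, p.adj = 1.11e-04) and than in astrocytes by 4.87 (SE 0.83, p.adj = 2.42e-05). Dlx1as averaged 1.42 ± 1.60 CPM in CaMKII positive and 0.153 ± 0.271 CPM in double-positive libraries (log2FC 2.75, p.adj = 0.0357). Dlx6, the coding neighbour of Dlx5, went the other way: it had 0 counts in the 10 CaMKII positive libraries and 54 counts in 5 of 17 astrocyte libraries, at least 11.3-fold higher in astrocytes (p.adj = 0.0186). Mouse 16 held 28 of these counts, and without it the bound was 5.68-fold. The calls of Dlx6os1, Dlx1as and Dlx6 were not examined with mouse as a block.

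Of other interneuron transcription factors, 7 of 15 tested were called higher and 4 lower in CaMKII positive than in double-positive cells, beside 26.4% and 19.4% of all genes, and 3 of 16 higher and 2 lower than in astrocytes, beside 12.7% and 3.5%. Lhx6, which marks interneurons of the medial ganglionic eminence, averaged 0.860 ± 1.21 CPM, and Sp9, a zinc finger factor of embryonic interneurons, 0.226 ± 0.452 CPM in CaMKII positive libraries. Of 20 other interneuron peptide, calcium-binding and surface genes, 13 were called higher and 0 lower in CaMKII positive than in double-positive cells (26.4% of all genes were higher), among them Reln at 16.4 ± 17.9 against 0.544 ± 0.421 CPM, Calb2 at 3.23 ± 2.32 against 0.0948 ± 0.167 CPM and Cck at 2.64 ± 2.91 against 0.523 ± 0.583 CPM. Against astrocytes, 5 of these 20 genes were called higher and 0 lower in CaMKII positive cells, beside 12.7% and 3.5% of all genes. Of the 7 genes of GABA reuptake, breakdown and B receptors, 7 were called higher in CaMKII positive than in double-positive cells (26.4% of all genes) and 3 lower than in astrocytes (3.5%). No gene of these lists was called between burn and sham in any population.

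Whether Gad1 varied between the 10 CaMKII positive libraries together with other genes was examined for 4 relations on the log2(CPM + 0.1) scale, with permutation tests (two-sided, 100000 resamples). None passed. Pearson's r was 0.24 with Gad2 (permutation p = 0.509, adjusted 0.761; Spearman's rho 0.387, p = 0.274), 0.12 with Slc32a1 (permutation p = 0.761, adjusted 0.761; rho −0.123, p = 0.742), 0.51 with Slc17a7 (permutation p = 0.129, adjusted 0.517; rho 0.564, p = 0.0971) and −0.12 with Pdgfra, a marker of oligodendrocyte precursors (permutation p = 0.745, adjusted 0.761; rho 0.0788, p = 0.837). Without the 2 libraries farthest from the median of Gad1, r was 0.485, −0.525, 0.408 and 0.0269, and within the 8 libraries of batch 3 it was 0.130, −0.0503, 0.492 and 0.154. Batch 1 held 2 libraries, too few for a value.

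**Figure D5:**
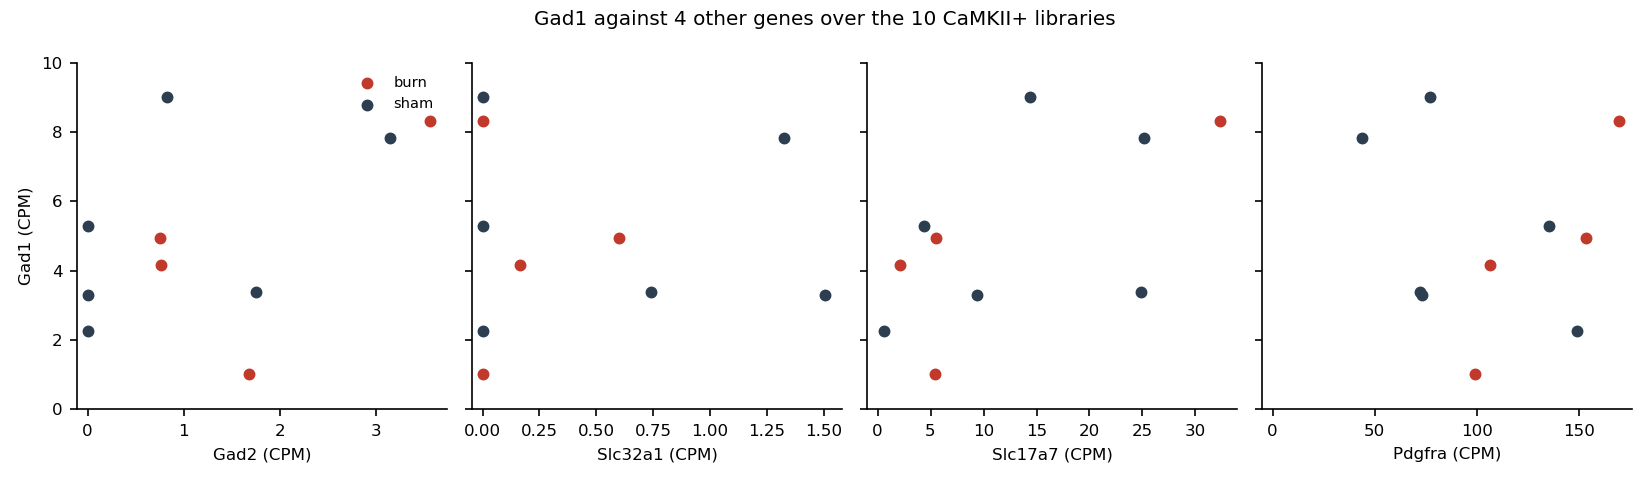
Gad1 against Gad2, Slc32a1, Slc17a7 and Pdgfra (all in CPM, linear axes) over the 10 CaMKII positive libraries, burn in red and sham dark. Gad2 is at 0 in 3 libraries and Slc32a1 in 5, at Gad1 levels from 1.01 to 9.01 CPM.

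The genes whose log2(CPM + 0.1) ran most like that of the summed 10 genes, among 17178 genes, were listed as a description. Over the 58 libraries, which differ in population, they were Cep170b (r = 0.917), C230004F18Rik (0.910), Sgsm1 (0.897), Rian (0.896) and Map1a (0.887), each at higher mean CPM in CaMKII positive and astrocyte libraries than in the other 2 populations. Over the 10 CaMKII positive libraries they were Cacnb4 (r = 0.946), Rnf227 (0.944), Tex2 (0.932), D430041D05Rik (0.925) and Rian (0.925). Rian was on both lists, which share these 10 libraries.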

How the data were processed

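RNA-seq counts were analysed for 10 genes chosen by name with earlier results of these data known, as were the gene lists. According to the methods of the study, the authors trimmed reads with fastp, used STAR for alignment to GRCm39 and GenomicAlignments for counting per Ensembl gene, and deposited 4 tables of raw counts, 1 per population. The deposited log2-like tables of transformed values were not used. All sample columns matched the labels, and 0 were left unused. No 2 of the 63 libraries held the same counts.

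CPM is the count divided by the library's total over all gene rows, times 1e6. Tests were edgeR 4.0.16 (glmQLFit, glmQLFTest; R 4.3.3) with TMM, run on genes that reached 10 counts over the libraries compared, with batch (and, between populations, treatment) as covariates. SE was computed from the log2FC and the square root of its F statistic. Mouse 3 and the double-positive library of mouse 8 were left out as in the study. Libraries of the same animal share a number, so they are paired: the median correlation of their deviations from group means was 0.0703 (8 mice) for CaMKII positive with double-positive cells, and −0.0107 to 0.0660 for the other 5 pairs of populations. DESeq2 1.42.0, other size factors, other count filters, no batch term, batch 3 alone, all deposited libraries, the block and each mouse left out were alternatives; leaving out mice in 5 of the 10 comparisons was added after the data were seen. On simulated counts, CaMKII positive burn against sham (26922 genes) recovered 42 of 100 genes changed 4-fold and 2 of 100 changed 2-fold, and CaMKII positive against double-positive (29869 genes) 100 and 34 of 100. Changes were placed only in genes with many counts per library, and each simulation used the same dispersion for all genes. These rates were therefore not measured for rarer genes such as Dlx2, Dlx5, Slc32a1 and Sst. Lengths and overlaps are from GENCODE M21 (GRCm38), used without positions. All 10 genes were named throughout, and besides them the Dlx neighbours, Lhx6, Sp9, Cck, Calb2, Reln, defining markers, and the 5 genes most correlated with the summed 10 (mean of at least 1 CPM in CaMKII positive libraries); a few others under this rule are left unreported. Python 3.11.15, scipy 1.17.1 and matplotlib 3.10.9 were used for the rest.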

Additional observations from a re-analysis of the deposited data

Results flagged for a closer look

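In 33 of 72 groups of 4 to 9 libraries, the highest library stood apart from the others by Dixon's criterion (5 in CaMKII positive, 12 in double-positive, 7 in astrocyte and 9 in microglia groups). Chance would give about 1 in 20 groups, for values that are not as often 0 as these. In CaMKII positive sham libraries these were Vip at 15.2 CPM in mouse 19, and Dlx5 at 1.02 CPM and Sst at 1.02 CPM in mouse 17. In CaMKII positive burn libraries they were Npy at 8.76 CPM and Vip at 0.722 CPM, both in mouse 24, which also had the highest Sst.

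In astrocyte sham libraries, mouse 13 stood apart for 4 genes: Gad2 at 5.54 CPM, Slc32a1 at 3.64 CPM, Sst at 1.46 CPM and Vip at 0.672 CPM. Mouse 17 stood apart for Dlx1 at 1.42 CPM and Npy at 6.73 CPM, and in astrocyte burn libraries mouse 23 did for Npy at 4.59 CPM.

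In double-positive burn libraries, mouse 11 stood apart for Dlx2 at 0.248 CPM and Dlx5 at 0.0207 CPM, mouse 20 for Sst at 0.550 CPM and Vip at 0.338 CPM, mouse 21 for Slc32a1 at 0.544 CPM and Npy at 0.599 CPM, and mouse 24 for Pvalb at 0.668 CPM. In double-positive sham libraries, mouse 12 did for Dlx5 at 0.0186 CPM, Slc32a1 at 0.0557 CPM and Sst at 0.0743 CPM, mouse 15 for Pvalb at 0.939 CPM and mouse 19 for Dlx2 at 0.953 CPM. The Dlx5 values are 1 count each.

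In microglia burn libraries, mouse 7 stood apart for Slc32a1 at 0.230 CPM, mouse 21 for Dlx2 at 0.218 CPM and mouse 23 for Sst at 0.312 CPM. In microglia sham libraries, mouse 8 did for Gad2 at 0.712 CPM and Pvalb at 0.219 CPM, mouse 13 for Vip at 0.337 CPM, mouse 15 for Sst at 0.803 CPM, mouse 16 for Dlx1 at 0.636 CPM and mouse 19 for Slc32a1 at 0.500 CPM.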

How the results depend on the processing

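In burn against sham, 0 of the 10 genes were called under any alternative run, each mouse left out included. Of 28 called differences between populations, 0 turned direction under any alternative, while 33 differences that were not called did under at least 1. For 5 of the 10 comparisons (burn against sham in astrocytes and microglia, and the last 3 of the ranges that follow) leaving out mice was added after the data were seen. When 1 mouse was left out, the calls numbered 5 to 7, 2 to 3, 8 to 9, 3 to 5 and 5 to 6 for CaMKII positive against double-positive cells, astrocytes and microglia, double-positive cells against astrocytes, and astrocytes against microglia. With mouse as a block, the calls between CaMKII positive cells and double-positive cells, astrocytes and microglia numbered 3, 1 and 5 in place of 6, 3 and 8, and the block changed no other call of the 10 genes beyond those given in the report. Between double-positive cells and microglia, where Dlx2 and Pvalb were called, the number of calls was 0 with all deposited libraries, with filterByExpr and in batch 3 alone. It was 1 with no filter beyond 1 count, in DESeq2 and with the block, and 0 to 2 when 1 mouse was left out. The call with the block was that of Gad2. DESeq2 gave no adjusted p for Dlx2 (log2FC 2.97) and Pvalb (3.42) there, so its call was of another gene.

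Scaling by library size moved the log2FC of the 10 genes by a median of 0.25 between CaMKII positive and double-positive cells, 0.17 against astrocytes and 0.14 against microglia, and the size factors of DESeq2 moved the first by 0.18; no direction changed with either. Uncalled values that turned direction, of burn against sham, were in CaMKII positive cells Dlx2 at −0.11 with all deposited libraries and −0.18 with no batch term, Npy at −0.11 with all deposited libraries, and Dlx1 at 0.22 and Gad1 at 0.0595 in batch 3 alone; in double-positive cells Dlx1 at −0.0871 in batch 3 alone; in astrocytes Gad2 at −0.11 and Sst at −0.47 with no batch term; and in microglia Vip at 0.10 with all deposited libraries. Between populations they were Gad2 at −0.23 with the block (CaMKII positive against double-positive); Gad2 at −0.11 with all deposited libraries, −0.11 in batch 3 alone and −0.40 with the block, and Npy at −0.11 and −0.0871 in the first and second of these (CaMKII positive against astrocytes); Sst at −0.84, −1.61 and −0.0065 in the same order (double-positive against microglia); and Vip at −0.52 with all deposited libraries and Sst at −1.44 in batch 3 alone (astrocytes against microglia). Correlations that turned sign were Gad1 with Pdgfra at 0.237 with all deposited libraries and 0.154 in batch 3 alone, and Gad1 with Slc32a1 at −0.0503 in batch 3 alone. The cause was not tested for any of these.

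When single mice were left out, the values that turned direction ranged, for burn against sham in CaMKII positive cells, from −0.85 to 0.64 for Dlx1, −0.71 to 0.19 for Gad1, −4.65 to 2.13 for Dlx2, −3.53 to 2.15 for Dlx5, −6.99 to 5.08 for Vip and −2.02 to 1.27 for Npy, and in double-positive cells from −0.43 to 0.76 for Dlx1, −3.17 to 1.3 for Pvalb, −0.65 to 0.12 for Gad2 and −2.06 to 3.00 for Dlx2. They ranged from −0.21 to 0.25 for Gad2, −0.87 to 0.49 for Npy and −0.33 to 1.41 for Dlx2 (CaMKII positive against astrocytes) and from −2.01 to 1.33 for Sst, −2.28 to 0.49 for Slc32a1 and −1.01 to 1.76 for Vip (double-positive against microglia). In the comparisons added, they ranged for burn against sham in astrocytes from −1.40 to 2.61 for Dlx1, −1.02 to 0.53 for Dlx2 and −4.15 to 0.82 for Slc32a1, in microglia from −1.09 to 2.58 for Dlx1, −0.50 to 0.0200 for Gad1, −1.56 to 0.25 for Pvalb and −3.74 to 0.26 for Slc32a1, from −0.14 to 0.86 for Dlx1 and −1.08 to 1.56 for Vip in double-positive cells against astrocytes, and from −0.0876 to 0.89 for Vip in astrocytes against microglia. Vip in CaMKII positive cells turned too, but it held 0 sham counts without mouse 19 and 0 burn counts without mouse 24, so no range is given. Pvalb in microglia held 0 sham counts without mouse 8, so its range is of fitted values and not of exact folds. Vip in microglia, with 0 counts in each burn library, had fitted values of −1.61 to 0, which did not turn. The correlation of Gad1 ranged from −0.170 to 0.276 with Slc32a1 and from −0.327 to 0.153 with Pdgfra. Genes at 0 in most libraries of a population, such as Dlx5, Vip and Sst, gave few counts to compare, and the part of depth in this was not tested.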
